A study of Mus musculus with 4 samples.

Results

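The 31 genes described here encode enzymes and carriers of mitochondrial fatty acid oxidation and of ketone synthesis in the liver. They were listed by name for their place in the pathway and all 31 were found on the array among 20886 named genes. The module was read by 41 probes, with 9 genes on more than 1 probe, and all 31 genes were well above background on all 4 arrays by the scanner's own flag. The samples were livers of male mice, measured on 1-colour Agilent arrays. The 4 groups were catalase knockout on a high-fat diet (CKO-HFD), catalase knockout on a normal diet (CKO-ND), wild type on the high-fat diet (WT-HFD) and wild type on the normal diet (WT-ND). Fat supplied 60.3% of calories in the high-fat diet and 18% in the normal diet, and feeding ran for 11 weeks, between 29 and 40 weeks of age. Each group was 1 array, so the spread between animals is not measured anywhere below and no difference between 2 arrays has a replicate check. The labels do not name the strain, the knockout allele or whether a sample pooled several animals.

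Fatty acids enter the pathway once an acyl-CoA synthetase has joined them to coenzyme A. Long chains then cross the inner mitochondrial membrane as carnitine esters, and the beta-oxidation spiral shortens them through dehydrogenation, hydration, a second oxidation and thiolytic cleavage. Electrons from the first dehydrogenation pass through the electron transfer flavoprotein to the respiratory chain. In liver, much of the acetyl-CoA formed is turned into ketone bodies for export, and the nuclear receptor PPARalpha is a well-known activator of many of these genes. Catalase, which the knockout lacks, removes hydrogen peroxide in peroxisomes, where a separate beta-oxidation system shortens very long chains.

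Levels are given as the log2 of the scanner's processed signal after subtraction of each array's 75th percentile, so that a level of 0 is the brightness of that percentile. A level belongs to 1 probe and was compared only between arrays. Differences are log2 differences between 2 arrays, and the error after ± comes from the scanner's error model for spots. It treats spots as independent and leaves out the spread between animals. It was 0.20 for nearly all members. The words rose and fell are kept for differences of 2-fold or more, and a second size of 1.5-fold is counted beside it. Of 39429 probes, 23760 to 25184 were well above background per array, and no spot was saturated. Cat, the gene deleted in the knockout, had levels of 0.95 on CKO-HFD and 1.13 on CKO-ND, against 4.75 on WT-HFD and 4.89 on WT-ND. It fell by 3.81 ± 0.20 in the knockout on the high-fat diet and by 3.76 ± 0.20 on the normal diet. The labels do not say whether its probes lie in the deleted part.

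The sequences shown first are promoter windows of members on which the results turn, from 250 bases before to 50 bases after the start site, taken from RefSeq on build GRCm38.p6. Windows were found for 26 of the 31 genes. The other members, Cpt1b, Acad9, Decr1, Acaa2 and Acat1, are named only. Hadha and Hadhb, the subunits of the mitochondrial trifunctional protein, lie head to head on chromosome 5 with 272 bases between their start sites. Their windows share 228 bases (chr5:30155003-30155230), given in capitals in the Hadhb window (chr5:30155003-30155302, plus strand):
Hadhb: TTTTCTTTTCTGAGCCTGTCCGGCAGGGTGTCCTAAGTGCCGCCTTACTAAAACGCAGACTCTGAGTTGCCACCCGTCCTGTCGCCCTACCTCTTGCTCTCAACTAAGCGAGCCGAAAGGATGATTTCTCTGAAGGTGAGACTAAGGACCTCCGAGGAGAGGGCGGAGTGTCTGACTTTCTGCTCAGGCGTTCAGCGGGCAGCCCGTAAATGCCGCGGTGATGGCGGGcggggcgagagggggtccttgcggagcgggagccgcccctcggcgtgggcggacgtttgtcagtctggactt
The windows of Cpt1a (chr19:3323051-3323350, plus strand), Bdh1 (chr16:31428503-31428802, plus strand) and Acsl3 (chr1:78657575-78657874, plus strand) belong to the shuttle gene and the ketone gene with the largest diet differences in wild type and to the member with the largest genotype difference on the normal diet. Bdh1 has 2 windows in the table, and the one with more GC box cores is printed. Capitals mark the GC box core GGGCGG on either strand and, in Cpt1a, also the nuclear receptor core AGGTCA on either strand:
Cpt1a: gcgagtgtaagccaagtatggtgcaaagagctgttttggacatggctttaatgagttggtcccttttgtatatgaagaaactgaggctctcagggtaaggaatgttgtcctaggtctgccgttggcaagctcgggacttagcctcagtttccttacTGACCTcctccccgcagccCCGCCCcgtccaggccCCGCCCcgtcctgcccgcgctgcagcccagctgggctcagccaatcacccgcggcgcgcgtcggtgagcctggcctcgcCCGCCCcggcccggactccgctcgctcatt
Bdh1: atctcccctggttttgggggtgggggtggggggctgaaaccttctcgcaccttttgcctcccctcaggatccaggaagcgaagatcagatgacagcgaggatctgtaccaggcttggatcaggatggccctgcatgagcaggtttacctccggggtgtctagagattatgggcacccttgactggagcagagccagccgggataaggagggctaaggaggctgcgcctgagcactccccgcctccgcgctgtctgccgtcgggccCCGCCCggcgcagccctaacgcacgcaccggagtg
Acsl3: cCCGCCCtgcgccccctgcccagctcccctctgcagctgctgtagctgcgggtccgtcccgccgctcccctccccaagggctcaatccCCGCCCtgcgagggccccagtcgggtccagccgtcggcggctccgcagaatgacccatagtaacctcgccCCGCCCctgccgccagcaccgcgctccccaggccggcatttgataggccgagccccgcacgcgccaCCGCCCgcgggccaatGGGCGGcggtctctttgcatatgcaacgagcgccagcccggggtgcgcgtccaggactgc

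Each motif was searched on both strands of windows of the same length, and the receptor core below can also be a part of the direct repeat. The GC box core was found for 19 of the 26 members, or 73.1%, and for 38.2% of 27025 genes with a window. It occurred 3 times in the Cpt1a window, 1 time in the Bdh1 window and 5 times in the Acsl3 window. The receptor core AGGTCA was found for 4 members, Cpt1a, Acadvl, Acadm and Echs1, or 15.4%, against 18.1% of all genes. In Cpt1a it begins 94 bases before the start site. The direct repeat of 2 AGGNCA elements with 1 base between them, the form that PPARalpha is known to bind, had no match in the members' windows and was present in 0.451% of all genes' windows, which says only that these letters are not in the windows searched. The CCAAT core was found for 10 members, or 38.5%, against 41.1% of all genes. These matches describe the letters and were not tested as sites.

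**Figure D1:**
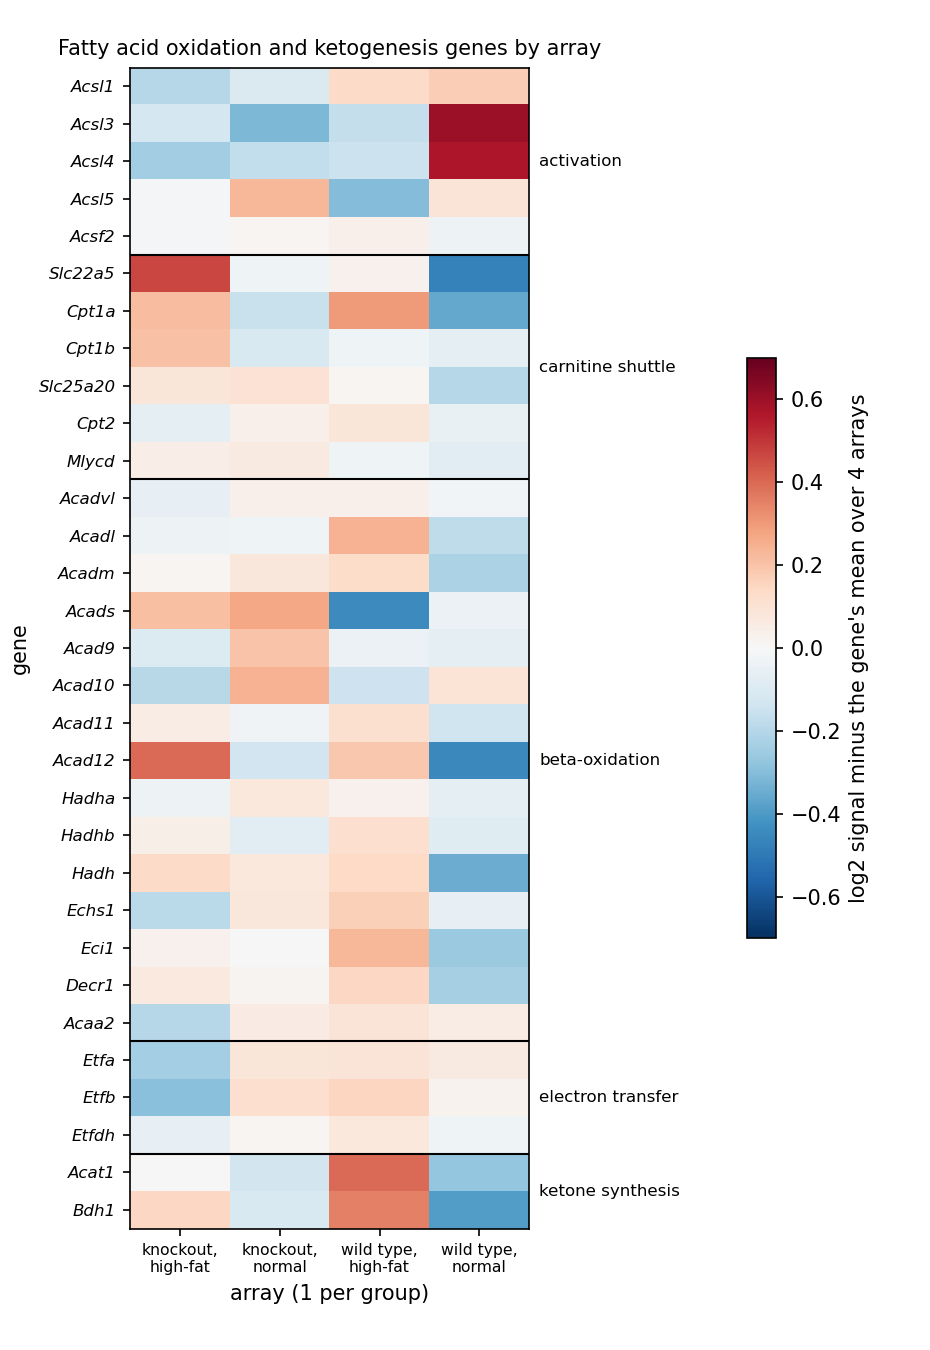
Level of each of the 31 genes on the 4 arrays (columns), as log2 scaled signal minus the gene's own mean over the arrays, with genes in rows by pathway step. Red is above and blue below that mean. Acsl3 and Acsl4 are reddest on WT-ND, where most other genes are blue, and Acat1 and Bdh1 are reddest on WT-HFD.

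The module as a whole differed little between the arrays. In wild type, the high-fat diet gave a median log2 difference of 0.12 over the 31 genes, with 25 positive and 6 negative, beside a median of -0.024 over 13735 genes measured on both arrays. Of those genes, 6276 were positive and 7459 negative. In the knockout, the median diet difference was -0.029, with 12 positive and 19 negative, beside -0.067 over all genes. There 5536 of all genes were positive and 8343 negative, so the split of the members was close to that of all genes. Of the 31 genes, 0 rose and 0 fell by 2-fold in either diet comparison. Across all genes 1.78% rose and 2.31% fell with diet in wild type, and 4.22% rose and 1.64% fell with diet in the knockout. At 1.5-fold, 4 members were higher and 2 lower on WT-HFD than on WT-ND, against 4.45% and 6.51% of all genes. The count of higher members was thus above the background share and that of lower members, 6.45%, close to it. In the knockout 0 members reached 1.5-fold either way, against 9.52% of all genes higher and 5.68% lower.

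Between genotypes the module again stayed within 2-fold, with 0 members called in either direction on either diet. On the high-fat diet, the knockout minus wild type median was -0.080, with 8 positive and 23 negative values, beside -0.044 over all genes. On the normal diet it was 0.14, with 27 positive and 4 negative, beside -0.010 over all genes. Over all genes, 5956 were positive and 7874 negative on the high-fat diet, and 6621 and 7158 on the normal diet. Of all genes, 2.51% were 2-fold higher and 1.59% 2-fold lower with the knockout on the high-fat diet, against 1.4% and 2.5% on the normal diet. At 1.5-fold, 1 member was higher and 0 lower on the high-fat diet, against 7.34% and 4.36% of all genes. On the normal diet 0 were higher and 2 lower, against 3.89% and 6.65%. The normal-diet genotype comparison and the wild-type diet comparison share the WT-ND array, and whatever is peculiar to it affects both.

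The distance of the members' median from that of all genes was 0.15 for diet in wild type and 0.038 for diet in the knockout. It was -0.036 for genotype on the high-fat diet and 0.15 for genotype on the normal diet. After quantile normalization the members' medians for diet in the knockout and for genotype on the high-fat diet turned positive, at 0.13 and 0.049. The distances from all genes were then 0.16 for diet in the knockout, 0.23 for diet in wild type and 0.053 for genotype on the high-fat diet. The signs of those medians depended on the scaling, whereas the wild-type diet and normal-diet genotype medians stayed positive in all 7 settings tried, the reported one and 6 alternatives. All members are well above background, so dropping the filter on dim probes repeats their reported values, and using the deposited value table nearly does. The mean of all probes repeats them for the 22 members with 1 probe. Scaling to the array median gave -0.13 for the members and -0.17 for all genes with diet in the knockout. With genotype on the normal diet it gave 0.28 for the members and 0.13 for all genes. This scaling shifts all genes of an array equally, so it cannot change the distances. Without a filter on dim probes the distance for genotype on the high-fat diet was 0.016.

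An additive model of diet and genotype, fitted with limma across 14346 genes, is the one fit here with a residual degree of freedom, and that 1 degree is the interaction of diet and genotype. It called 0 of 31 members for diet and 0 for genotype at an adjusted p of 0.05, where it also called 0% of all genes for either term. At an unadjusted p under 0.05 it had 3 of 31 members for diet, beside 1425 of 14346 genes. For genotype it had 2 of 31 members, beside 1041 of 14346 genes. Both member counts were close to the share of all genes. The lowest adjusted p among members was 0.46 for diet, for Acad12, with an estimate of 0.59 (95% interval 0.22 to 0.95). For genotype it was 0.65, for Slc22a5, with an estimate of 0.44 (95% interval 0.086 to 0.79).

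**Figure D2:**
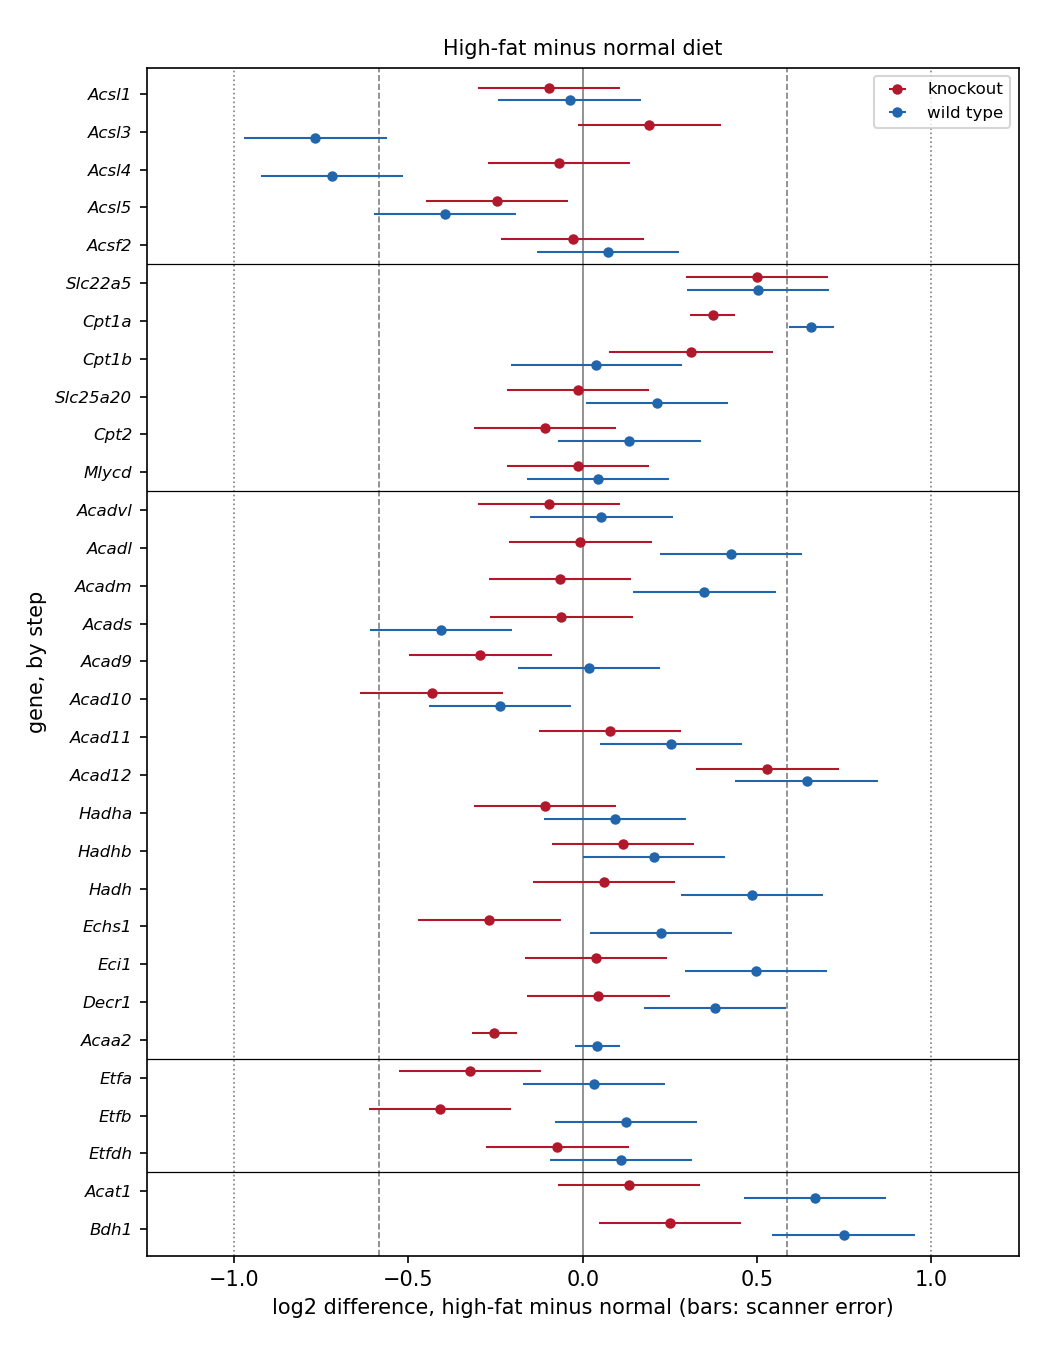
Log2 difference of high-fat minus normal diet for each gene (rows, by step), in knockout (red) and wild type (blue). Bars are the scanner error, dashed lines mark 1.5-fold and dotted lines 2-fold. No point reaches 2-fold, and the wild-type points of Acsl3 and Acsl4 lie on the left while those of Cpt1a, Acad12, Acat1 and Bdh1 pass 1.5-fold on the right.

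The activation step held the largest differences of the module. Acsl3, an acyl-CoA synthetase of the endoplasmic reticulum and lipid droplet surface, had levels of -0.95 on CKO-HFD, -1.14 on CKO-ND, -0.99 on WT-HFD and -0.23 on WT-ND. The WT-ND array stood above the other 3, which lay close together. Its diet difference was 0.19 ± 0.20 in the knockout and -0.77 ± 0.20 in wild type, 1.70-fold lower on the high-fat diet. Its genotype difference was 0.046 ± 0.20 on the high-fat diet and -0.91 ± 0.20 on the normal diet, 1.88-fold lower in the knockout. Acsl4, which prefers arachidonic acid, was likewise highest on WT-ND, with 2.56 on CKO-HFD, 2.63 on CKO-ND, 2.65 on WT-HFD and 3.37 on WT-ND. Acsl4 differed by -0.069 with diet in the knockout, by -0.72 with diet in wild type and by -0.74 with genotype on the normal diet, each ± 0.20. Both genes kept at least 1.5-fold for wild-type diet and normal-diet genotype in all 7 settings. Each is read by 1 probe, so mainly median scaling, quantile normalization and normexp background correction could change these values. These 4 differences all rest on the single WT-ND array. The 4 cholangiocyte markers measured of 6 listed were also higher there than on WT-HFD and CKO-ND, with a median of -0.60 for diet in wild type and -0.94 for genotype on the normal diet. Their list's summed level was 0.85 on CKO-HFD, -0.63 on CKO-ND, -0.38 on WT-HFD and 0.21 on WT-ND, as log2. In that list Epcam was not well above background on any array, and Krt7 was well above background on WT-ND alone. Other lists also stood higher on WT-ND. All 10 hepatocyte markers did in both comparisons, with medians of -0.10 for diet and -0.099 for genotype. All 11 macrophage and 4 neutrophil markers measured were higher than on CKO-ND, but 9 and 4 of them were lower than on WT-HFD. All 5 lymphocyte markers measured were higher than on WT-HFD, and 3 of 5 higher than on CKO-ND. The part of these marker lists in the values of Acsl3 and Acsl4 was not tested.

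The other synthetases moved less. Acsl1, the main long-chain synthetase of liver, had levels of 6.36 on CKO-HFD, 6.46 on CKO-ND, 6.69 on WT-HFD and 6.73 on WT-ND. Both knockout arrays were below both wild-type arrays, by 0.33 ± 0.20 on the high-fat diet and 0.27 ± 0.20 on the normal diet. Its other probe gave -0.0090 on the high-fat diet and -0.39 on the normal diet, and for diet in the knockout 0.18 where the brighter one gave -0.097. Acsl5, a synthetase found on mitochondria and endoplasmic reticulum, read 4.36 on CKO-HFD, 4.61 on CKO-ND, 4.07 on WT-HFD and 4.47 on WT-ND. It was lower on the high-fat diet in both genotypes, by 0.25 in the knockout and 0.39 in wild type. Acsf2, a mitochondrial synthetase for shorter chains, spanned 2.68 to 2.76 over the 4 arrays. Its probes disagreed in sign for diet in wild type, at 0.072 and -0.13, and for genotype on the high-fat diet, at -0.052 and 0.081.

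In the carnitine shuttle, Cpt1a and the carnitine transporter were the genes with clear differences. Cpt1a encodes the liver form of carnitine palmitoyltransferase, the rate-limiting entry to the mitochondrion, and its probe was printed 10 times per array. Its level was 5.09 on CKO-HFD, 4.72 on CKO-ND, 5.18 on WT-HFD and 4.52 on WT-ND. Both high-fat arrays lay above both normal-diet arrays. The diet difference was 0.37 ± 0.065 in the knockout and 0.66 ± 0.065 in wild type, 1.58-fold, and the second probe gave 0.39 in the knockout and 0.57 in wild type. After quantile normalization the knockout value was 0.58. For genotype on the high-fat diet the probes gave -0.084 and 0.0066, so no direction is given. Slc22a5, the plasma membrane carnitine transporter, read 0.017 on CKO-HFD, -0.48 on CKO-ND, -0.42 on WT-HFD and -0.92 on WT-ND. Diet and genotype differences were nearly equal, at 0.50 ± 0.20 with diet in either genotype and 0.44 ± 0.20 with genotype on either diet, so that CKO-HFD was highest and WT-ND lowest.

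The remaining shuttle genes varied little. Slc25a20, the carnitine-acylcarnitine translocase of the inner membrane, had levels of 1.28 on CKO-HFD, 1.29 on CKO-ND, 1.21 on WT-HFD and 0.99 on WT-ND. Cpt2, which releases the acyl-CoA inside the mitochondrion, lay between 4.99 on CKO-HFD and 5.15 on WT-HFD. Mlycd, which removes malonyl-CoA, the inhibitor of Cpt1 enzymes, lay between 4.80 on WT-ND and 4.93 on CKO-ND. Cpt1b, the muscle form, was dim, with levels of -3.38 on CKO-HFD, -3.69 on CKO-ND, -3.61 on WT-HFD and -3.65 on WT-ND. Its 2 probes differed for diet in the knockout, at 0.31 ± 0.23 on the brighter and 1.03 on the other. Of 6 skeletal muscle markers, Ckm, Acta1, Myh4 and Tnnt3 were not well above background on any array, and Mylpf was well above background on WT-ND alone. Tnni2 was well above background on all 4 arrays, at -2.99 on CKO-HFD, -2.88 on CKO-ND, -3.50 on WT-HFD and -3.46 on WT-ND.

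The acyl-CoA dehydrogenases, which open each turn of beta-oxidation, differed among themselves. Acadvl, for very long chains, spanned 6.34 to 6.44. Acadl, for long chains, read 3.11 on CKO-HFD, 3.11 on CKO-ND, 3.39 on WT-HFD and 2.96 on WT-ND, and Acadm, for medium chains, read 5.82 on CKO-HFD, 5.88 on CKO-ND, 5.93 on WT-HFD and 5.58 on WT-ND. In the knockout the diet difference was -0.0066 for Acadl and -0.065 for Acadm, and in wild type it was 0.43 for Acadl and 0.35 for Acadm, each ± 0.20. Acads, for short chains, took the other course, with 2.11 on CKO-HFD, 2.17 on CKO-ND, 1.45 on WT-HFD and 1.86 on WT-ND. Both knockout arrays exceeded both wild-type arrays, by 0.66 ± 0.20 on the high-fat diet, 1.58-fold, and by 0.31 ± 0.20 on the normal diet. The high-fat value passed 1.5-fold in all 7 settings and was the only member to do so in that comparison.

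Acad12 and Acad10, relatives of these dehydrogenases that are neighbouring genes on chromosome 5, went separate ways. Acad12 read 0.26 on CKO-HFD, -0.27 on CKO-ND, 0.054 on WT-HFD and -0.59 on WT-ND. Its diet difference was 0.53 ± 0.20 in the knockout and 0.64 ± 0.20 in wild type, so both high-fat arrays lay above both normal-diet arrays. The dimmer Acad12 probe gave -0.033 in the knockout and 0.26 in wild type. Acad10 read 3.85 on CKO-HFD, 4.28 on CKO-ND, 3.90 on WT-HFD and 4.13 on WT-ND, with diet differences of -0.43 ± 0.20 in the knockout and -0.24 ± 0.20 in wild type. Acad9, which also serves in the assembly of respiratory complex I, was highest on CKO-ND at 2.47 and lay between 2.18 and 2.23 on the other arrays. Acad11 spanned 5.82 on WT-ND to 6.07 on WT-HFD.

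The trifunctional protein genes that share a start region differed by small amounts. Hadha read 1.34 on CKO-HFD, 1.45 on CKO-ND, 1.41 on WT-HFD and 1.31 on WT-ND, and Hadhb read 4.94 on CKO-HFD, 4.82 on CKO-ND, 5.01 on WT-HFD and 4.81 on WT-ND. With diet, Hadha differed by -0.11 in the knockout and 0.093 in wild type, and Hadhb by 0.12 in the knockout and 0.20 in wild type, each ± 0.20. Hadh, the dehydrogenase for shorter hydroxyacyl chains, was lowest on WT-ND at 4.85 and lay between 5.27 and 5.34 on the other 3 arrays. Echs1, the enoyl-CoA hydratase, had levels of 4.996 on CKO-HFD, 5.26 on CKO-ND, 5.35 on WT-HFD and 5.13 on WT-ND. Its diet difference was -0.27 ± 0.20 in the knockout and 0.22 ± 0.20 in wild type.

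Eci1 and Decr1, which prepare the double bonds of unsaturated fatty acids for the spiral, had the same order over the arrays at the top and bottom. Eci1 read 5.60 on CKO-HFD, 5.56 on CKO-ND, 5.80 on WT-HFD and 5.30 on WT-ND. Decr1 read 6.27 on CKO-HFD, 6.22 on CKO-ND, 6.35 on WT-HFD and 5.97 on WT-ND. In the knockout the diet difference was 0.038 for Eci1 and 0.045 for Decr1, and in wild type it was 0.50 and 0.38, each ± 0.20. Acaa2, the thiolase that cleaves off acetyl-CoA, was lower on CKO-HFD at 7.87 than on the other arrays, which lay between 8.12 and 8.16, but after quantile normalization it differed by 0.035 from CKO-ND and by -0.0059 from WT-HFD. All 15 beta-oxidation genes were higher in the knockout than in wild type on the normal diet in each of the 7 settings. This comparison uses the single WT-ND array, and in the reported setting 6621 of all genes were positive and 7158 negative. The differences of the 15 then ran between 0.0062 and 0.42. Their median of 0.15 was smaller than the scanner error of 0.20 that nearly all members have. After median scaling their median was 0.29, beside 0.13 over all genes. On the high-fat diet 13 of these 15 were lower in the knockout, with a median of -0.075, but 10 were higher after quantile normalization.

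The electron transfer genes were lowest on the CKO-HFD array, as were 40.0% of all genes. Etfa and Etfb encode the subunits of the electron transfer flavoprotein, and Etfdh passes its electrons to ubiquinone. Etfb read 6.43 on CKO-HFD, 6.84 on CKO-ND, 6.87 on WT-HFD and 6.75 on WT-ND, and Etfa read 5.86 on CKO-HFD, 6.18 on CKO-ND, 6.19 on WT-HFD and 6.16 on WT-ND. For Etfb the CKO-HFD array was lower by 0.44 ± 0.20 than WT-HFD and by 0.41 ± 0.20 than CKO-ND. For Etfa it was lower by 0.33 than WT-HFD and by 0.32 than CKO-ND, and on the second probe by 0.30 and 0.25. Etfdh had levels of 5.19 on CKO-HFD, 5.26 on CKO-ND, 5.32 on WT-HFD and 5.21 on WT-ND. Its CKO-HFD and WT-ND levels lay closer together than the scanner error of 0.20. After quantile normalization the knockout diet difference was smaller for Etfb, at -0.17, and for Etfa, at -0.082, and it was 0.18 for Etfdh.

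The ketone genes of the module were highest on WT-HFD. Bdh1, which interconverts acetoacetate and beta-hydroxybutyrate, read 5.02 on CKO-HFD, 4.77 on CKO-ND, 5.23 on WT-HFD and 4.48 on WT-ND. Its diet difference was 0.25 ± 0.20 in the knockout and 0.75 ± 0.20 in wild type, 1.68-fold, and the other probes gave 0.23 and 0.37 in the knockout and 0.65 and 0.82 in wild type. After quantile normalization the knockout value was 0.47. Acat1, the mitochondrial acetoacetyl-CoA thiolase, read 3.89 on CKO-HFD, 3.76 on CKO-ND, 4.28 on WT-HFD and 3.62 on WT-ND. Its diet difference was 0.13 ± 0.20 in the knockout and 0.67 ± 0.20 in wild type, 1.59-fold. On the high-fat diet both genes were lower in the knockout, by 0.21 for Bdh1 and 0.39 for Acat1, and on the normal diet both were higher, by 0.29 and 0.14. These signs were the same in all 7 settings.

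**Figure D3:**
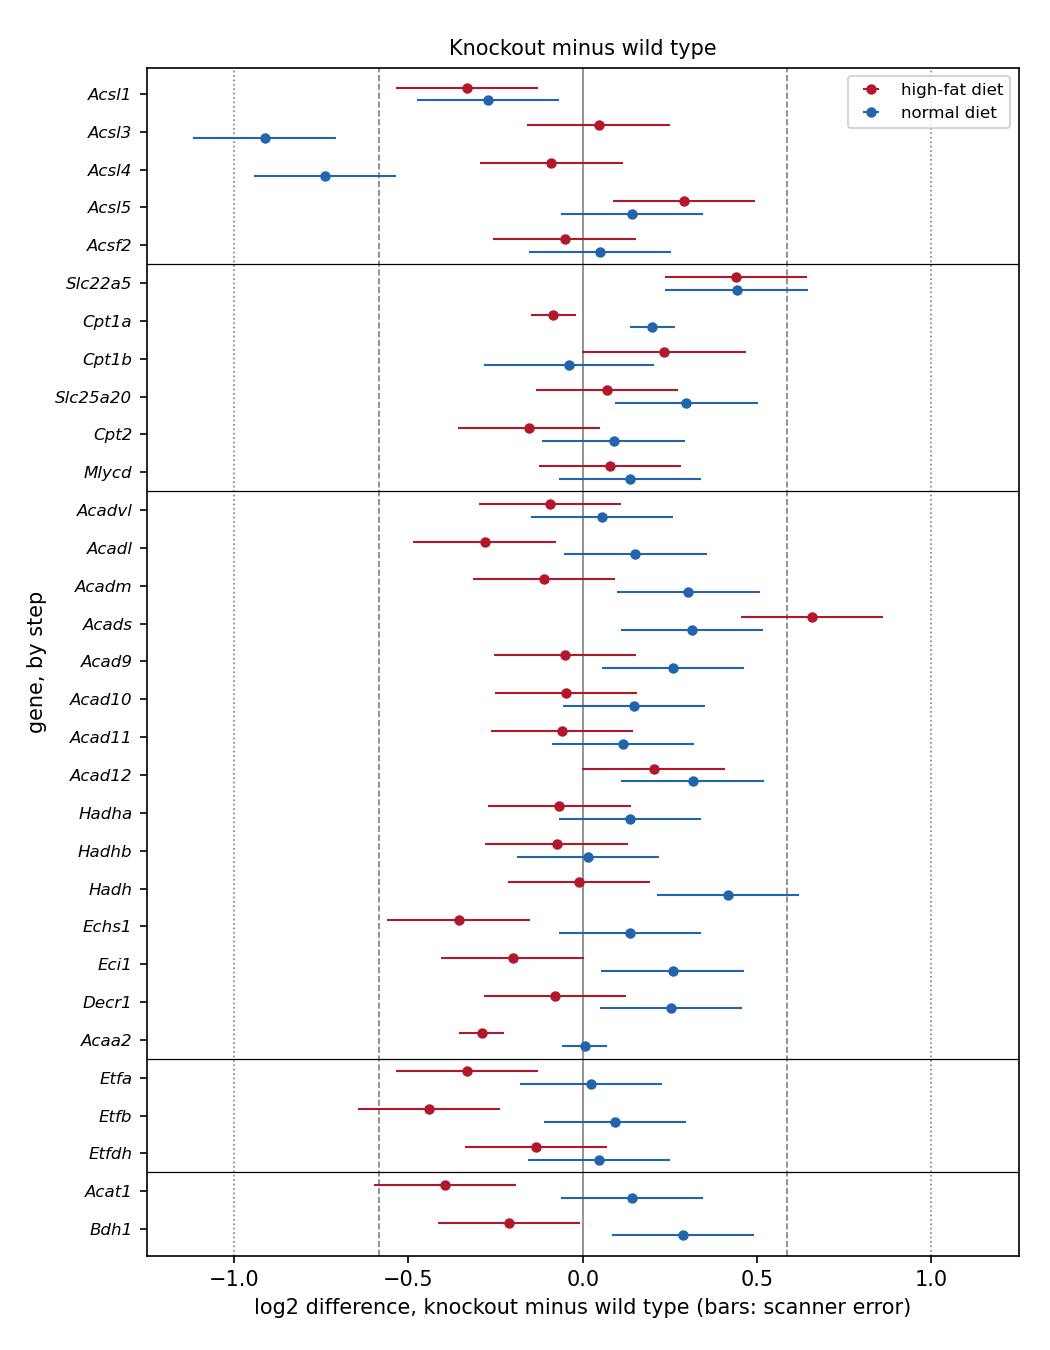
Log2 difference of knockout minus wild type for each gene (rows, by step), on the high-fat diet (red) and the normal diet (blue). Bars are the scanner error, dashed lines mark 1.5-fold and dotted lines 2-fold. All 15 beta-oxidation genes lie right of 0 on the normal diet, and Acads on the high-fat diet is the point past 1.5-fold on the right.

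The diet differences of the genotypes share no array and can be set against each other. The knockout diet difference minus the wild-type one had a median of -0.20 over the 31 genes, with 5 positive and 26 negative, beside a median of -0.038 over 13551 genes well above background on all 4 arrays. Negative values numbered 23 to 27 over the 7 settings, and the median was -0.40 after median scaling and -0.12 after quantile normalization. By step, 14 of 15 beta-oxidation genes, all 3 electron transfer genes and both ketone genes were negative in the main setting, with medians of -0.30, -0.36 and -0.52. Activation was the step with a positive median, 0.15. No member reached 2-fold in this difference, against 3.73% of all genes upward and 1.28% downward. The lowest values were -0.54 ± 0.29 for Acat1, -0.53 ± 0.29 for Etfb, -0.50 ± 0.29 for Bdh1 and -0.49 ± 0.29 for Echs1, and the highest were 0.96 ± 0.29 for Acsl3 and 0.65 ± 0.29 for Acsl4.

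Read array by array, 16 of the 31 members had their lowest level on WT-ND and 11 on CKO-HFD, against 22.2% and 40.0% of all genes. The highest level was on WT-HFD for 17 members and on CKO-ND for 8, against 18.9% and 26.3% of all genes. Over 5 of the settings, WT-ND held the lowest level of 15 to 24 members and CKO-HFD that of 1 to 11, with 6 after normexp correction and 1 after quantile normalization. The shares of all genes moved too, between 19.3% and 33.6% on WT-ND and between 31.9% and 44.4% on CKO-HFD. The place of the highest level moved with the scaling, to 10 members on WT-HFD and 15 on CKO-HFD after quantile normalization. The shares of all genes were then 19.3% and 29.1%.

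Other genes around the pathway were counted in lists. Of 22 further mitochondrial fatty acid and ketone genes, 2 rose and 0 fell with diet in the knockout, and 1 rose and 0 fell in wild type. Acot2, a mitochondrial acyl-CoA thioesterase, rose by 1.13 ± 0.22 in the knockout and by 1.47 ± 0.24 in wild type. Slc16a6, a transporter of ketone bodies, rose by 1.34 ± 0.20 in the knockout, with 1.40 on its second probe. Its wild-type diet difference was 0.34 on the brighter probe and -0.67 on the other. The list's median diet difference was -0.067 in the knockout and 0.30 in wild type.

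Among 19 regulators, 0 rose and 1 fell with diet in the knockout, and 0 rose or fell in wild type. Ppargc1b, a coactivator of mitochondrial genes, fell by 1.03 ± 0.21 with diet in the knockout and differed by 0.15 in wild type. Lpin1, a phosphatidate phosphatase that also acts with PPARalpha, fell by 1.13 ± 0.20 in the knockout relative to wild type on the high-fat diet, and its other probe gave -1.49. Ppara itself had levels of 5.31 on CKO-HFD, 5.18 on CKO-ND, 5.42 on WT-HFD and 4.82 on WT-ND. Its diet difference was 0.13 ± 0.20 in the knockout and 0.61 ± 0.20 in wild type, so it was highest on WT-HFD and lowest on WT-ND. For genotype on the high-fat diet its probes gave -0.11, 0.13 and -0.43. Ppargc1a spanned -0.25 on CKO-HFD to 0.13 on WT-ND. The acetyl-CoA carboxylases, which make malonyl-CoA, were lowest on WT-HFD, with Acaca at 4.12 on CKO-HFD, 4.13 on CKO-ND, 3.65 on WT-HFD and 4.06 on WT-ND. Another Acaca probe gave 0.13 for diet in the knockout, where the brightest gave -0.013. Acacb read 3.74 on CKO-HFD, 4.01 on CKO-ND, 3.21 on WT-HFD and 3.75 on WT-ND.

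The PPARalpha targets outside the module had wider differences than its members. Of 18 such genes, 3 rose and 0 fell with diet in the knockout, with a median of 0.22, and 7 rose and 0 fell in wild type, with a median of 0.69. With genotype, 0 rose or fell on the high-fat diet and 6 rose and 0 fell on the normal diet. Cyp4a14, a fatty acid omega-hydroxylase, differed by 0.29 ± 0.20 with diet in the knockout and rose by 4.13 ± 0.20 in wild type. Fgf21, a secreted fasting hormone, rose by 2.67 ± 0.21 in the knockout and by 2.13 ± 0.21 in wild type. Pdk4, a kinase that restrains pyruvate oxidation, rose by 1.16 ± 0.21 in the knockout and differed by 0.46 in wild type. Acot3, a peroxisomal thioesterase, and Vnn1, a pantetheinase, rose by 2.43 and 1.88 in wild type, and Vnn1 rose by 1.04 in the knockout. On the normal diet Cyp4a14 rose by 2.98, Acot3 by 1.98 (2.54 on its other probe), Cd36 by 1.51 and Cyp4a10 by 1.35 in the knockout. Another Cyp4a10 probe gave 0.76 there, and 1.09 for diet in wild type where the brightest gave 1.70.

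**Figure D4:**
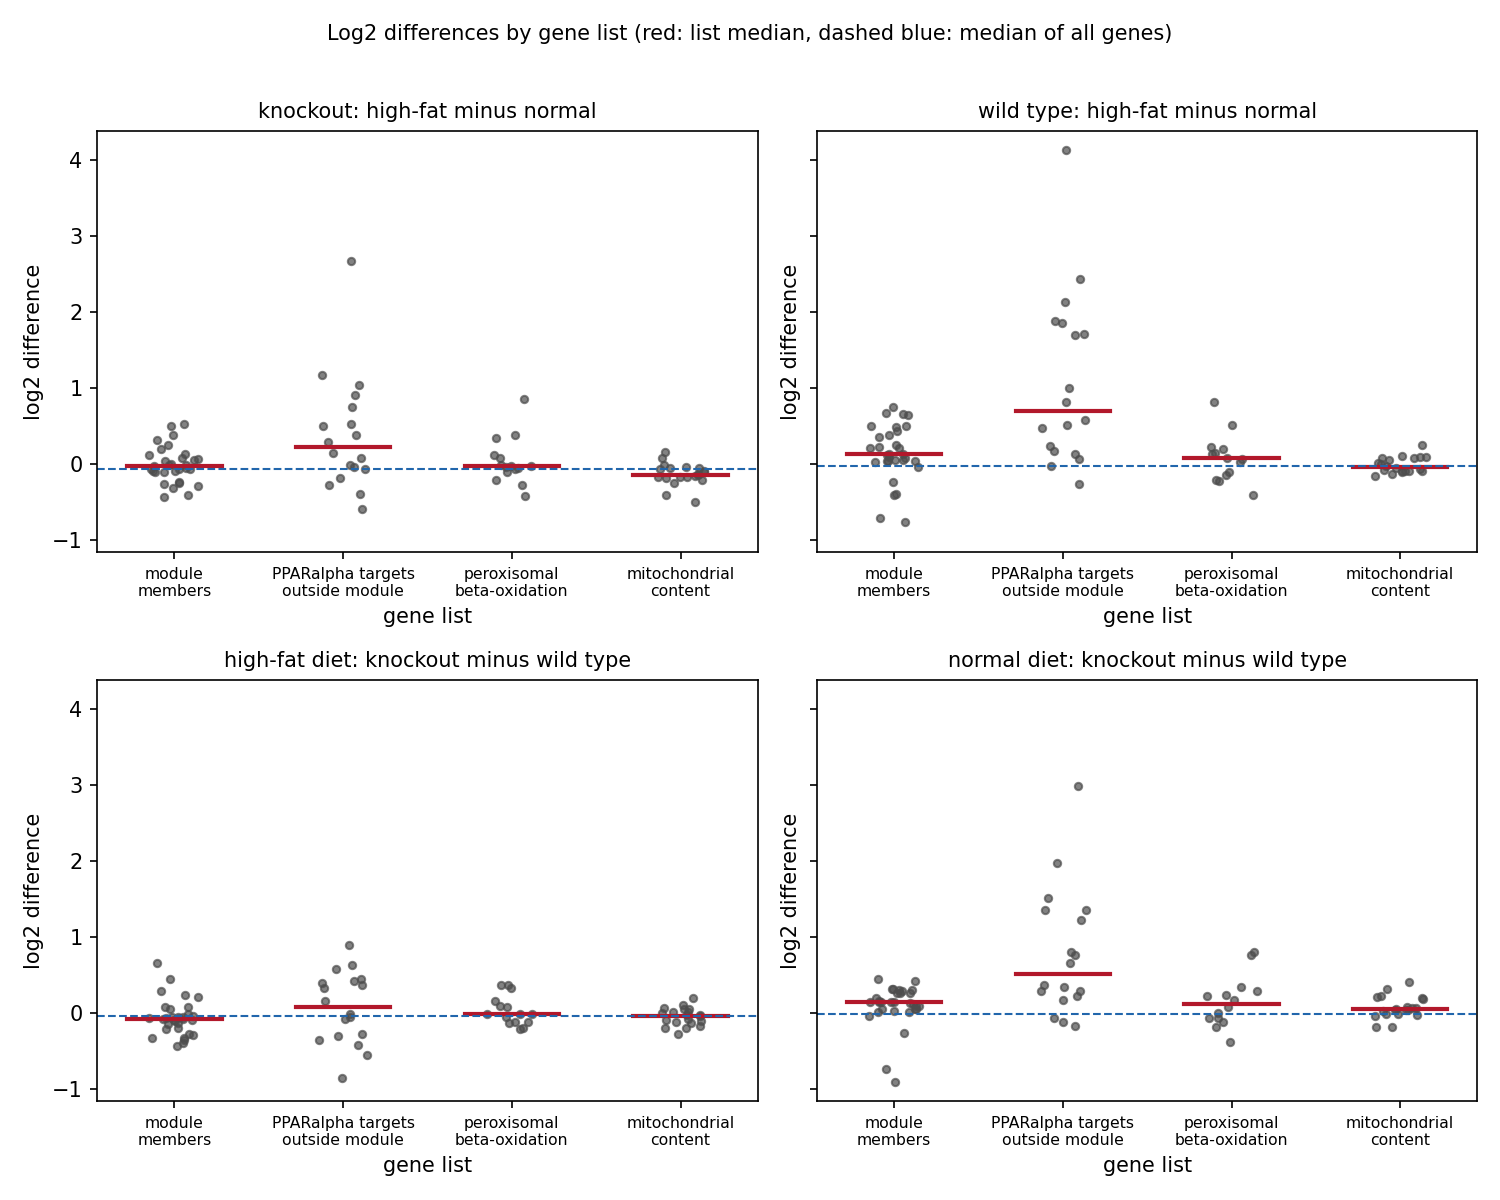
Log2 differences of single genes (points) in the 31 members and 3 related lists, for the 4 comparisons, with knockout diet and high-fat genotype panels on the left. Red lines are list medians and the dashed blue line the median of all genes. Module members stay within 1 log2 unit of 0 in every panel, while PPARalpha targets reach 4.13 in wild type.

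Genes that follow mitochondrial content had small differences. Of 20 such genes, including citrate synthase and subunits of the respiratory chain, 0 rose or fell in any of the 4 comparisons. With diet, their median was -0.14 in the knockout, with 2 positive and 18 negative, and -0.044 in wild type, with 8 positive and 12 negative. Over all genes, 5536 were positive and 8343 negative in the knockout, and 6276 and 7459 in wild type. Peroxisomal beta-oxidation genes had a median diet difference of -0.035 in the knockout and 0.071 in wild type. Abcd2, a peroxisomal fatty acid transporter, was not well above background on WT-ND. It was at least 5.83-fold higher on WT-HFD and at least 2.94-fold higher on CKO-ND.

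The marker lists of cell types differed between the arrays, and not all in the same direction. All 11 macrophage markers measured were higher on CKO-HFD than on CKO-ND, by 0.59 to 3.74, and 8 rose, against 4.22% of all genes. All 11 were also higher than on WT-HFD, by 0.096 to 2.63, and 5 rose, against 2.51% of all genes. A dimmer probe of Csf1r, named after its values were seen, gave -0.11 against CKO-ND and -0.069 against WT-HFD, where the brightest gave 0.85 and 0.61, and the other probe gave 1.48 and 1.09. The summed macrophage signal was 6.52 on CKO-HFD, 5.11 on CKO-ND, 5.65 on WT-HFD and 5.38 on WT-ND, as log2. On the normal diet all 11 macrophage markers were lower in the knockout than in wild type, with a median of -0.14. Of 10 hepatocyte markers, all well above background on all arrays, 9 were lower on CKO-HFD than on CKO-ND, with a median of -0.29, and all 10 were lower than on WT-HFD, with a median of -0.30 and 1 that fell. The 4 neutrophil markers measured had a median of 2.26 against CKO-ND, from 0.15 to 2.49, and 0.92 against WT-HFD, from -0.077 to 1.36. Their summed level was 6.05 on CKO-HFD, 5.82 on CKO-ND, 6.07 on WT-HFD and 5.91 on WT-ND. All 4 were lower on CKO-ND than on WT-ND, with a median of -0.88, so CKO-ND was itself low for them. Stellate cell and matrix markers had a median of 0.61 against CKO-ND, with 9 positive and 0 negative. Against WT-HFD their median was 0.77, with 9 positive and 1 negative. The 3 erythroid markers were lower on CKO-HFD, with medians of -0.38 against CKO-ND and -1.14 against WT-HFD, where 2 fell. All 6 lymphocyte markers measured were lower than on CKO-ND, with a median of -0.17, but 3 of 5 were higher than on WT-HFD. The 3 adipocyte markers measured had medians of 1.40 and 0.43, with 1 negative in each, and a wild-type diet median of 1.40. Endothelial markers had a median of 0.22 in both comparisons, with 0 of 8 negative against CKO-ND and 2 against WT-HFD. Of 4 cholangiocyte markers measured, 2 were lower than on CKO-ND and 1 lower than on WT-HFD. Against CKO-ND, CKO-HFD was lower for Etfa and Etfb and higher for Bdh1, by 0.25, and Acat1, by 0.13, while against WT-HFD it was lower for all 4. The part of these markers in the members' values was not tested. In bulk liver RNA, fewer cells of a type and less RNA per cell cannot be told apart.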

How the data were processed

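Mouse liver RNA was measured on 4 1-colour arrays, 1 per group. Each deposited scanner file gives intensity per spot, written by Feature Extraction 11.5.1.1 per the file headers, with a background-subtracted processed signal, its error and quality flags. The authors extracted values with GeneSpring GX 7.3, per the series' design text. The deposited value table is linear intensity with no centring: 99.7% of probes lay within 1% of the scanner signal on each array, and its column medians were 89.2 (CKO-HFD), 72.4 (CKO-ND), 75.9 (WT-HFD) and 79.9 (WT-ND).

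Control spots and spots with an outlier flag were left out, unless all spots of a probe were flagged. Spots of a probe were averaged as log2, and the log2 of each array's 75th percentile of signal, taken over its 39429 probes, was then removed. The accession of each probe named 27508 probes through a RefSeq table of GRCm38.p6, and 11921 stayed unnamed. The brightest probe by mean level stood for each gene. Further probes of named genes are given where they differ in sign or by over 0.5 log2. A probe well above background on 1 array of a comparison gives a bound. The limma fit used only genes that were well above background on 2 or more arrays, and its p-values were adjusted by Benjamini-Hochberg. The normexp alternative, with an offset of 50, used the median spot signal in place of the planned mean, and kept spots with outlier flags. The members and lists were chosen with earlier results of these data known. All 31 members were named, by step, and of other lists those changed 2-fold, at most 4 per comparison, plus Ppara, Ppargc1a, Acaca and Acacb. The size rule and the limma fit were tested on simulated data. Tools were R 4.3.3, limma 3.58.1, Python 3.11.15, numpy 2.4.6, pandas 2.3.3 and matplotlib 3.10.9. Depth does not apply to arrays, and 1 array per group limits the precision.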

Additional observations from a re-analysis of the deposited data

Results flagged for a closer look

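Acsl3 had opposite diet differences in the genotypes, 0.19 ± 0.20 in the knockout and -0.77 ± 0.20 in wild type, so that the knockout value exceeded the wild-type value by 0.96 ± 0.29 on the log2 scale. Opposite signs of the diet difference were seen in 15 of the 31 members, and Acsl3 is the one of these with at least 1.5-fold in a genotype, a size chosen after the values were seen. In the others neither difference exceeded 0.43 in size. With 1 array per group this difference was not tested, and the knockout value lies within its scanner error.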

How the results depend on the processing

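The 31 members were recomputed under scaling to the median, quantile normalization, normexp background correction, the mean of all probes, no filter on dim probes and the deposited value table. The counts of 0 members changed 2-fold stayed at 0 under these 6 settings in all 4 comparisons, and so did the counts called by limma. With a size of 1.5-fold in place of 2-fold, the counts were 4 higher and 2 lower for diet in wild type, 1 higher for genotype on the high-fat diet and 2 lower for genotype on the normal diet. The members' medians ran between -0.13 and 0.13 for diet in the knockout, 0.12 and 0.25 for diet in wild type, -0.14 and 0.049 for genotype on the high-fat diet, and 0.14 and 0.28 for genotype on the normal diet. The median difference of the diet effects ran between -0.40 and -0.12. A single member difference counted as moved when it changed by at least its scanner error or the members' median error of 0.20, whichever was larger. For differences already at 1.5-fold the limit was a change of 1.5-fold. By this rule 723 did not move and 21 did, 18 of them under quantile normalization. Many of the 723 could not move, so their number does not measure stability. The setting without a filter repeats the reported values, and the deposited value table nearly does. The mean of all probes repeats them for the 22 members with 1 probe. Median scaling shifts all members equally, by less than the limit of 0.20. Median scaling called 377 genes for diet and 219 for genotype with limma, where the main scaling called 0, and no member was among them. No paired analysis was possible because each group is 1 array with no replicate number in the labels. Spot precision limits differences under about 0.20, and the spread between animals is unknown.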
